A study of Mus musculus with 18 samples.

Results

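The liver expression of 10 genes of prostaglandin and leukotriene metabolism was compared between diets: Ptgds, Ptgs1, Ptges, Ptges2, Ptgr1, Hpgd, Alox5, Alox5ap, Lta4h and Pla2g6. They were chosen by symbol, and all 10 symbols were found on the array. They had 12 of its 39429 non-control probes, 1 probe each and 2 for Ptges and for Hpgd. Liver RNA came from 18 male mice of the inbred strain C57BL/6J, aged 13 weeks, with 1 array per mouse. All had eaten a high-fat diet (51.1% of energy as lipid, 16.7% as protein and 32.1% as carbohydrate) for 5 weeks from the age of 8 weeks, after random assignment. The fat was linseed oil in 8 mice, with 66.7% polyunsaturated fatty acids (49.7% alpha-linolenic acid), 22.5% monounsaturated and 9.7% saturated. It was palm oil in 10 mice, with 55.6% saturated, 34.8% monounsaturated and 8.8% polyunsaturated fatty acids. No group on a low-fat diet was analysed here, so every value sets one high-fat diet against the other.

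Prostaglandins and leukotrienes are short-lived lipid signals made from polyunsaturated fatty acids. Phospholipases A2 release the fatty acid from membranes, cyclooxygenases turn arachidonic acid into prostaglandin H, and separate synthases then give prostaglandins D and E and the other prostanoids. In the other branch, 5-lipoxygenase (Alox5) with its activating protein makes leukotriene A, which Lta4h hydrolyses to leukotriene B. Dietary n-3 fatty acids are known to compete with arachidonic acid as substrates of these enzymes. In liver much of the pathway lies outside hepatocytes, in Kupffer cells and other leukocytes and in endothelium, while hepatocytes take up and inactivate many of the products.

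What the array reads of a gene is a 60-base probe, and Ptges and Hpgd each had a pair of them. The sequences below are stretches of 30 bases of 4 probes, 5′ to 3′, as the array files give them. Capitals mark a polyadenylation hexamer, AATAAA or ATTAAA, where the probe holds one. The Ptgds probe is shown because it carries the only difference that passed the test, the Ptges probes because the second was well above background on only 2 of 18 arrays, and the Hpgd probe for the hexamer it shares with Ptgds.
Ptgds: ccttgacaaagaAATAAAagtccaaagcaa
Ptges, first probe: aagtcagccccaATTAAAtgctttccttta
Ptges, second probe: gttgtcctcacaggccgtgtggtacacacc
Hpgd: gaaatatttagtAATAAAagcttgtccggg
One of these hexamers, searched on the probe strand alone, was in 3 of the 12 probes, and in 16.7% of all 39429 probes of the same length (AATAAA in 12.6%, ATTAAA in 4.56%). The Ptgds probe lies at chr2:25322232-25322291 on the minus strand (mm9). The Ptges probe with the hexamer lies at chr2:30744995-30745054 and the other at chr2:30748214-30748273, both on the minus strand. The first Hpgd probe lies at chr8:58799399-58799458 and the second at chr8:58798941-58799000, both on the plus strand. Exon and UTR annotation of mm9 was not used here.

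Values are log2 of the background-subtracted signal of a spot minus the 75th percentile of that array, so 0 is the level of a probe at that percentile. A gene was tested if a probe was well above background, in the judgement of the image software, on at least 8 of 18 arrays. Between 17258 and 22445 probes per array passed that mark, fewest on linseed array 5, and precision is limited by the number of arrays and, for dim probes, by background. The arrays lay on 5 slides, each with both diets. Hepatocyte markers were high on every array (7 of 9 tested, summed linear level 1518 to 2511 on linseed and 1692 to 2180 on palm, in multiples of the 75th percentile), and none of the 12 marker lists held a called gene. The lists had 1 to 10 tested genes each and only 0.759% of all genes were called, so this does not show equal cell content. Differences are linseed minus palm with the SE of the limma model and p-values adjusted over 15951 genes (Benjamini-Hochberg), and a gene is called at an adjusted p under 0.05. Labels name each sample a replicate on its own array. Nothing in them says that mice of a diet came from separate cages. The p-values set each difference against the spread between these mice, with differences between slides left in that spread.

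Of the 10 genes, 9 could be tested and 1, Ptgds, was called, lower on linseed oil. Over all 15951 genes 0.759% were called in either direction and 0.188% as lower. An unadjusted p under 0.05 was found for 2 of the 9 (Ptgds and Pla2g6), against 10.2% of all genes. The differences of the 9 were above 0 for 5 and below 0 for 4, with a median of 0.07 where that of all genes was −0.0038. Alox5 was not well above background on any array.

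Ptgds makes lipocalin-type prostaglandin D synthase, which converts prostaglandin H to prostaglandin D and is also secreted as a carrier of lipophilic molecules. Its linseed values ran from −5.27 to −1.91 with a median of −2.91 (mean −3.06 ± 1.06, SD, n = 8). Its palm values ran from −1.85 to −1.20 with a median of −1.47 (mean −1.49 ± 0.22, SD, n = 10). All 8 linseed arrays were thus below all 10 palm arrays, with a gap of only 0.058 between the highest linseed and the lowest palm array. Groups that do not overlap, lower on linseed, were found for 0.0627% of all genes. The processed signal was 3.53 to 41.5 intensity units on linseed and 46.5 to 78.6 on palm, and the probe was well above background on 7 of 8 linseed and 10 of 10 palm arrays. The difference was −1.57 ± 0.32 (95% interval −2.24 to −0.91), or 2.97-fold lower, with an adjusted p of 0.0277. In RNA from whole liver, fewer cells of a type and less RNA per cell cannot be told apart.

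**Figure D1:**
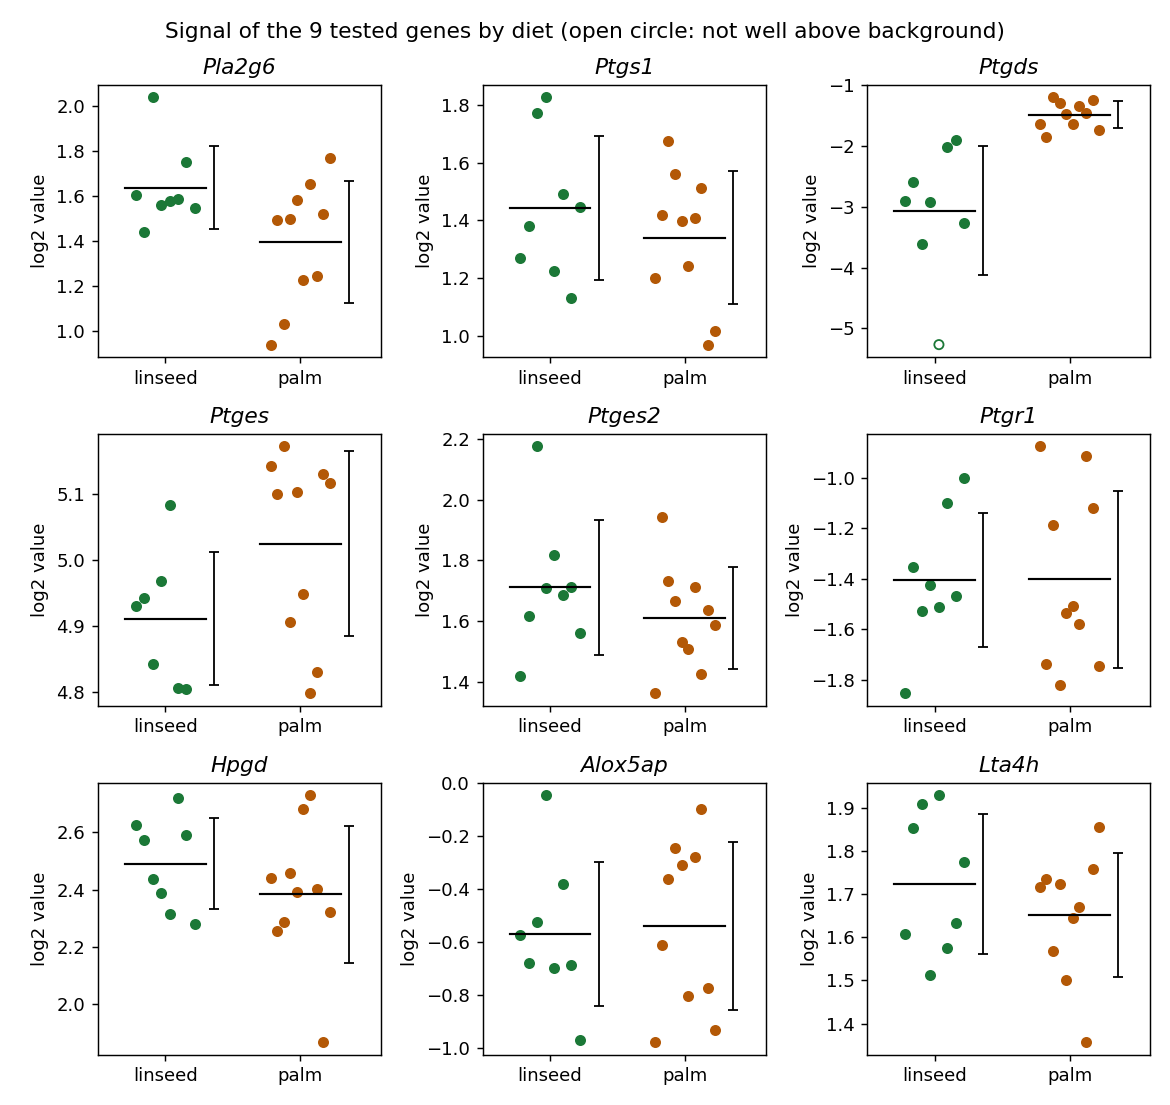
Log2 value (relative to each array's 75th percentile) of the 9 tested genes on each array, linseed in green (8 arrays, 7 for Ptges) and palm in orange (10 arrays), with the mean as a line and the SD as a bar, and a separate vertical scale in each panel. The Ptgds groups do not overlap, with linseed array 5 (open circle, not well above background) at −5.27, while the groups overlap for the other 8 genes.

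Ptgds was lower on linseed oil within each of the 5 slides, by amounts that differed. On slide 1 the linseed array was at −5.27 and the palm arrays at −1.48 and −1.64. On slide 2 the linseed arrays were at −2.90 and −2.60, with palm at −1.64 and −1.85. On slide 3 they were at −3.61 and −2.92, with palm at −1.20 and −1.30. The lowest of all 18 values was thus on slide 1 and the highest on slide 3. On slide 4 the linseed arrays were at −2.02 and −1.91, close to palm at −1.35 and −1.47. On slide 5 the linseed array was at −3.26 and the palm arrays at −1.24 and −1.74. The within-slide differences therefore ran from −3.71 on slide 1 to −0.56 on slide 4. That of slide 1 rests on a linseed spot that was not well above background, and the largest on the other slides was −2.02 (slide 3). With slide as a fixed block the difference was −1.67 (adjusted p = 0.0132).

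**Figure D2:**
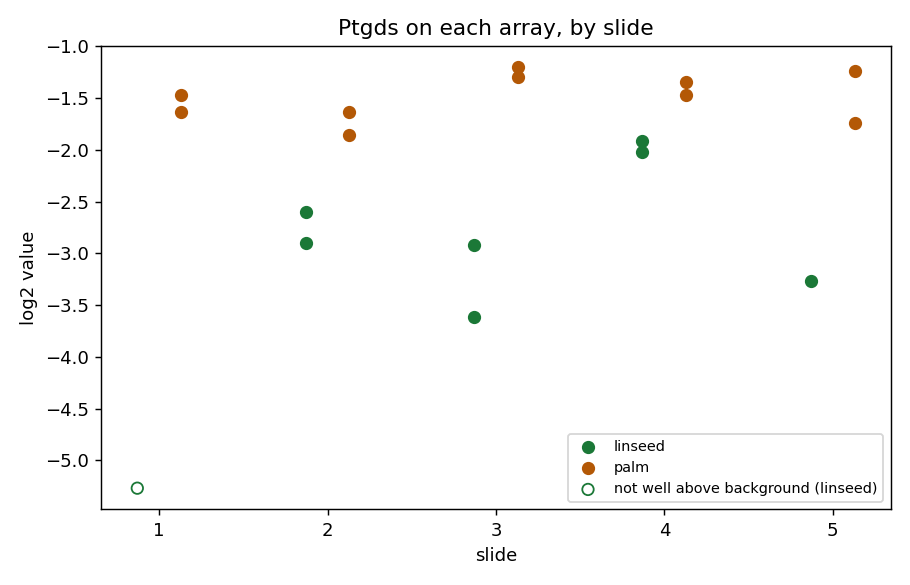
Log2 value of Ptgds on each of 18 arrays, by slide (1 to 5), linseed in green and palm in orange, open where the spot was not well above background. On every slide the linseed arrays lie below the palm arrays, farthest on slide 1 (a difference of −3.71) and least on slide 4 (−0.56).

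One linseed array set much of the spread. Without linseed array 5 the linseed mean was −2.75 ± 0.62 (SD, n = 7) and the difference −1.26 ± 0.20, with an adjusted p of 0.0056. For 1025 genes whose palm mean was within 0.25 of that of Ptgds, the median deviation of linseed array 5 from the palm mean was −0.054. None was as low as Ptgds (−3.78). The lowest 5% of these genes began at −0.89 on array 5, and at −0.67 to −0.38 on the other linseed arrays. The lowest signal well above background on array 5 was 13.6 intensity units, and Ptgds read 3.53 there. On linseed arrays 6 and 7, both of slide 4, Ptgds deviated by only −0.53 and −0.42, and 63 and 149 of the same genes lay lower. Array 5 also had the lowest summed level of leukocyte and monocyte markers of the 18 arrays (11.6, range 11.6 to 25.9 on linseed and 13.4 to 23.7 on palm, 8 of 10 markers tested). Linseed array 7 had nearly the same leukocyte sum (11.8) and the highest linseed Ptgds value (−1.91). Array 5 was also lowest of the 18 arrays for bile duct cell markers (0.753) and lowest on linseed for Kupffer cell markers (63.7). For the 1 mast cell marker tested it was highest on linseed (0.226). The part of leukocyte or other cell RNA in the Ptgds value of array 5 was not tested.

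The size of the Ptgds difference varied with how the values were made. With normexp background correction it was −0.486 ± 0.104 (1.4-fold lower, adjusted p = 0.034), and in the authors' deposited table of log2 values −0.68 ± 0.105 (1.6-fold lower, adjusted p = 0.00316). Ranks in that table followed the spot signal before background subtraction (rank correlation 0.9994 to 0.9998 per array) more closely than the background-subtracted signal (0.991 to 0.998), so its fold is not on the same footing as the 2.97-fold above. The groups overlapped in both, with 6 of 8 linseed arrays below all palm arrays, and with quantile normalization, with 7 of 8 below. The adjusted p rose above 0.05 with quantile normalization (−1.66, adjusted p = 0.0629), with no filter on dim probes (0.0766), without linseed array 3 (−1.49, 0.0663) and without palm array 9 (−1.55, 0.0503). A filter that asked for signal on all 18 arrays removed the gene. The adjusted p was also above 0.05 (0.141) in 1 more setting, a block on the replicate numbers of the labels. The labels do not say whether these numbers pair mice. The direction was the same in all 34 settings that gave a value, and the call was kept in 29 of them. These settings are not separate tests, as many only leave out 1 array. The Ptgds probe is its only one and had no marked spot. Keeping marked spots, averaging a gene's probes and taking every probe on its own therefore could not change its values.

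**Figure D3:**
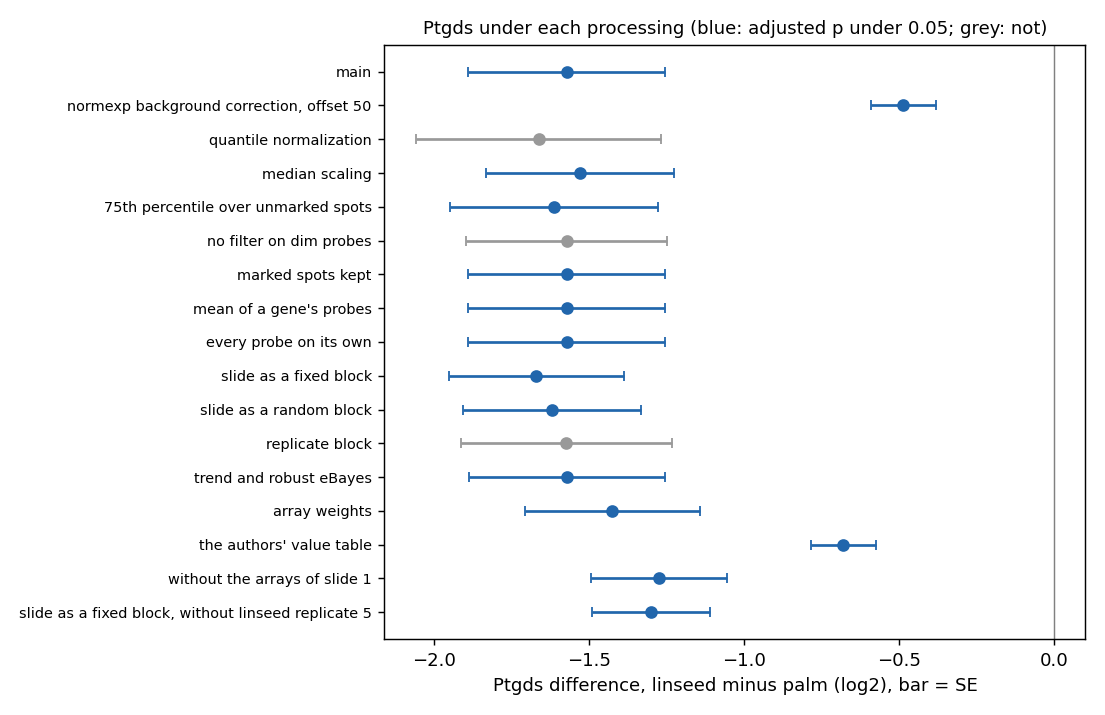
Ptgds difference, linseed minus palm (log2), with its SE as a bar, as reported and under 16 other settings (blue where the adjusted p was under 0.05, grey where not). Settings that change nothing but leave out 1 array are not drawn. All values lie below 0, from −1.67 with slide as a fixed block to −0.486 with normexp background correction.

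The remaining genes are given in the order of their roles. Pla2g6, a calcium-independent phospholipase A2 that releases fatty acids from membrane phospholipids, ran from 1.44 to 2.04 on linseed (median 1.58) and from 0.94 to 1.77 on palm (median 1.5). Its probe lies at chr15:79116957-79117016 on the minus strand (mm9, as for all probes here). The groups overlapped, with 2 palm arrays (0.94 and 1.03) below the other 16 arrays. The difference was 0.24 ± 0.11 (95% interval 0.0092 to 0.47, unadjusted p = 0.0424, limma adjusted p = 0.469), positive within 4 of 5 slides, and it was not called. Ptgs1, the constitutive cyclooxygenase, ran from 1.13 to 1.83 on linseed and from 0.97 to 1.67 on palm. Its difference was 0.10 ± 0.11 (limma adjusted p = 0.821; probe at chr2:36105892-36105951, plus strand). The inducible cyclooxygenase, Ptgs2, was not well above background on any array and was not tested.

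Of the prostaglandin E synthases, Ptges encodes the inducible microsomal enzyme and Ptges2 a membrane-associated one. Ptges (the first probe, with ATTAAA) had a linseed mean of 4.91 ± 0.10 (SD, n = 7) and a palm mean of 5.03 ± 0.14 (SD, n = 10), linseed array 8 being left out because its spot was marked as irregular. The difference was −0.11 ± 0.07 with a limma adjusted p of 0.635. The second Ptges probe was well above background on 0 of 8 linseed and 2 of 10 palm arrays, so it bears on neither diet. The 2 probes were far apart in level. The first had a median signal of 4532 intensity units on linseed and 5613 on palm, the second 4.78 and 6.30. Which of them reads the Ptges transcript better was not tested, so the values above are those of the first probe only. Ptges2 had a linseed mean of 1.71 ± 0.22 (SD, n = 8) and a palm mean of 1.61 ± 0.17 (SD, n = 10), a difference of 0.10 ± 0.09 (limma adjusted p = 0.784; probe at chr2:32257968-32258027, plus strand).

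Hpgd and Ptgr1 belong to the breakdown of prostaglandins: Hpgd oxidises the hydroxyl group that activity depends on, and Ptgr1 reduces the resulting keto compounds and also oxidises leukotriene B. Hpgd ran from 2.28 to 2.72 on linseed and from 1.87 to 2.73 on palm, with a difference of 0.11 ± 0.10 (limma adjusted p = 0.787). Its second probe gave 0.13 ± 0.15 (limma adjusted p = 0.809 over all 19510 kept probes, of which 0.753% were called), so both probes gave small positive differences within their error. On palm array 9 both Hpgd probes were at their lowest of the 18 arrays (1.87 and 0.15). Ptgr1 (probe at chr4:58979428-58979487, minus strand) ran from −1.85 to −1.0 on linseed and from −1.82 to −0.88 on palm. Its means were −1.40 on both diets and its difference was −0.0020 ± 0.14 (95% interval −0.30 to 0.30, limma adjusted p = 0.999).

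In the leukotriene branch, Alox5, the lipoxygenase that starts it, was well above background on 0 of 18 arrays. Its probe, at chr6:116360326-116360385 on the minus strand, read 1.16 to 4.34 intensity units on linseed and 1.04 to 5.75 on palm, from which no fold is given. Alox5ap, the membrane protein that presents arachidonic acid to Alox5, was detected on all 18 arrays by a probe at chr5:150099347-150099406 on the plus strand. It ran from −0.97 to −0.04 on linseed and from −0.98 to −0.10 on palm, and its difference was −0.03 ± 0.14 (95% interval −0.32 to 0.26, limma adjusted p = 0.966). Lta4h, the hydrolase that makes leukotriene B (probe at chr10:92947503-92947562, plus strand), ran from 1.51 to 1.93 on linseed and from 1.36 to 1.86 on palm. Its difference was 0.07 ± 0.08 (95% interval −0.090 to 0.23, limma adjusted p = 0.821). The 7 tested genes other than Ptgds and Ptges were well above background on all 8 linseed and all 10 palm arrays, as was the first Ptges probe. The p-values of the 8 genes that were not called do not show equal levels on both diets. Their 95% intervals together ran from −0.32 to 0.47.

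**Figure D4:**
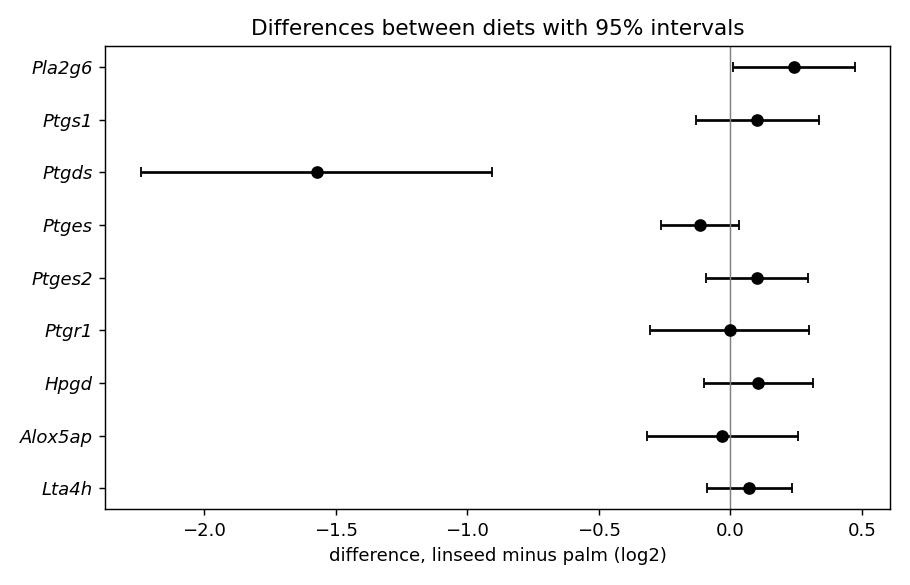
Difference between diets, linseed minus palm (log2), of the 9 tested genes with its 95% interval. The Ptgds interval, −2.24 to −0.91, is apart from those of the other 8 genes, of which the Pla2g6 interval (0.0092 to 0.47) also leaves out 0 before adjustment.

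The genes also differed in how far arrays of one diet spread. The SD around the diet means was 0.72 for Ptgds, larger than for 96.4% of all tested genes, and 0.13 for Ptges, larger than for 8.56%. Part of that spread lay between slides. Slides held a share of 0.66 of it for Ptgs1, 0.61 for Alox5ap and for Ptges and 0.50 for Hpgd, against 0.39 for Ptgds and 0.12 for Ptgr1. Values unrelated to slide also give some share, and the share over all tested genes was not computed. Ptgs1 and Alox5ap were both highest on slide 3 (0.32 and 0.26 above their diet means) and lowest on slide 5 (−0.23 and −0.34). Ptgds was highest on slide 4 and lowest on slide 1.

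Markers of some other cell types are given here because Ptgds, Alox5ap and Ptgs1 can be expressed outside hepatocytes. Kupffer cell markers, 10 of 10 tested, had summed levels of 63.7 to 151.8 on linseed and 60.2 to 124.3 on palm. For sinusoidal endothelium, 6 of 6 tested, they were 38.9 to 53.0 on linseed and 28.4 to 54.7 on palm. Of 6 adipocyte markers 2 were tested, with summed levels of 3.59 to 38.9 on linseed and 1.27 to 12.8 on palm. Cfd, the secreted protease adipsin, was at 2.54 ± 0.88 (limma adjusted p = 0.278) and Fabp4, a fatty acid carrier of adipocytes and macrophages, at 0.38 ± 0.32 (limma adjusted p = 0.751). The Cfd difference was the highest of all tested genes (unadjusted limma p = 0.0098). The defining adipocyte genes Adipoq, Plin1 and Retn were well above background on at most 3 of 8 linseed and 1 of 10 palm arrays, and Lep on none. The summed adipocyte levels of the diets overlapped, and their part in the Ptgds difference was not tested. Msln, the 1 mesothelial marker tested of 5, differed by −0.07.

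None of the other eicosanoid genes was called. The list held 59 genes in 7 roles, all on the array, of which 30 were tested. Over all genes 0.759% were called. An unadjusted p under 0.05 was found for 6 of the 30, against 10.2% of all genes, 15 differences were above 0 and 15 below, and the median was −0.021. Of the 29 not tested, 23 were well above background on no array. Those include Hpgds, the haematopoietic prostaglandin D synthase, and the prostaglandin D receptors Ptgdr and Ptgdr2. The other enzyme of prostaglandin D synthesis and both receptors of its product were each read by 1 probe. Without signal from that probe, their RNA level in whole liver is not known from these arrays.

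The smallest adjusted p among the 30 belonged to Mgst3, a microsomal glutathione transferase that can form leukotriene C. Its linseed mean was 1.39 ± 0.43 (SD, n = 8) and its palm mean 0.57 ± 0.42 (SD, n = 10), a difference of 0.82 ± 0.19 with a limma adjusted p of 0.0526. It passed the threshold in 7 of 35 other settings. Prxl2b, a prostamide and prostaglandin F synthase, differed by 0.54 ± 0.14 (limma adjusted p = 0.080), and by 0.60 with an adjusted p of 0.0447 without linseed array 8. Akr1b3, an aldose reductase that also makes prostaglandin F, differed by −0.33 ± 0.12 (limma adjusted p = 0.292). Cbr1, a carbonyl reductase that acts on prostaglandins, differed by 0.29 ± 0.11 (limma adjusted p = 0.365), and the prostaglandin transporter Slco2a1 by 0.21 ± 0.16. Among 7 tested phospholipases A2, the secreted Pla2g12a differed by 0.59 ± 0.20 (limma adjusted p = 0.255) and the lysosomal Pla2g15 by −0.15 ± 0.10.

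Receptors and the other lipoxygenases were mostly near the limit of detection. Of 9 prostanoid receptors 2 were tested, with Ptger2, a prostaglandin E receptor, at −0.27 ± 0.29 and Tbxa2r, the thromboxane receptor, at 0.00087 ± 0.15. Of 4 leukotriene receptors 3 were tested. Cysltr1, for cysteinyl leukotrienes, differed by −0.41 ± 0.18 (limma adjusted p = 0.449) and was well above background on 4 of 8 linseed and 7 of 10 palm arrays. Ltb4r1, for leukotriene B, differed by −0.17 ± 0.22. Alox12, the platelet lipoxygenase, differed by −0.46 ± 0.23 (limma adjusted p = 0.511; well above background on 2 of 8 linseed and 7 of 10 palm arrays), and Alox12b, of skin, by −0.045 ± 0.24. Dpep1, a dipeptidase that cleaves leukotriene D, differed by 0.33 ± 0.19 (limma adjusted p = 0.608).

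**Figure D5:**
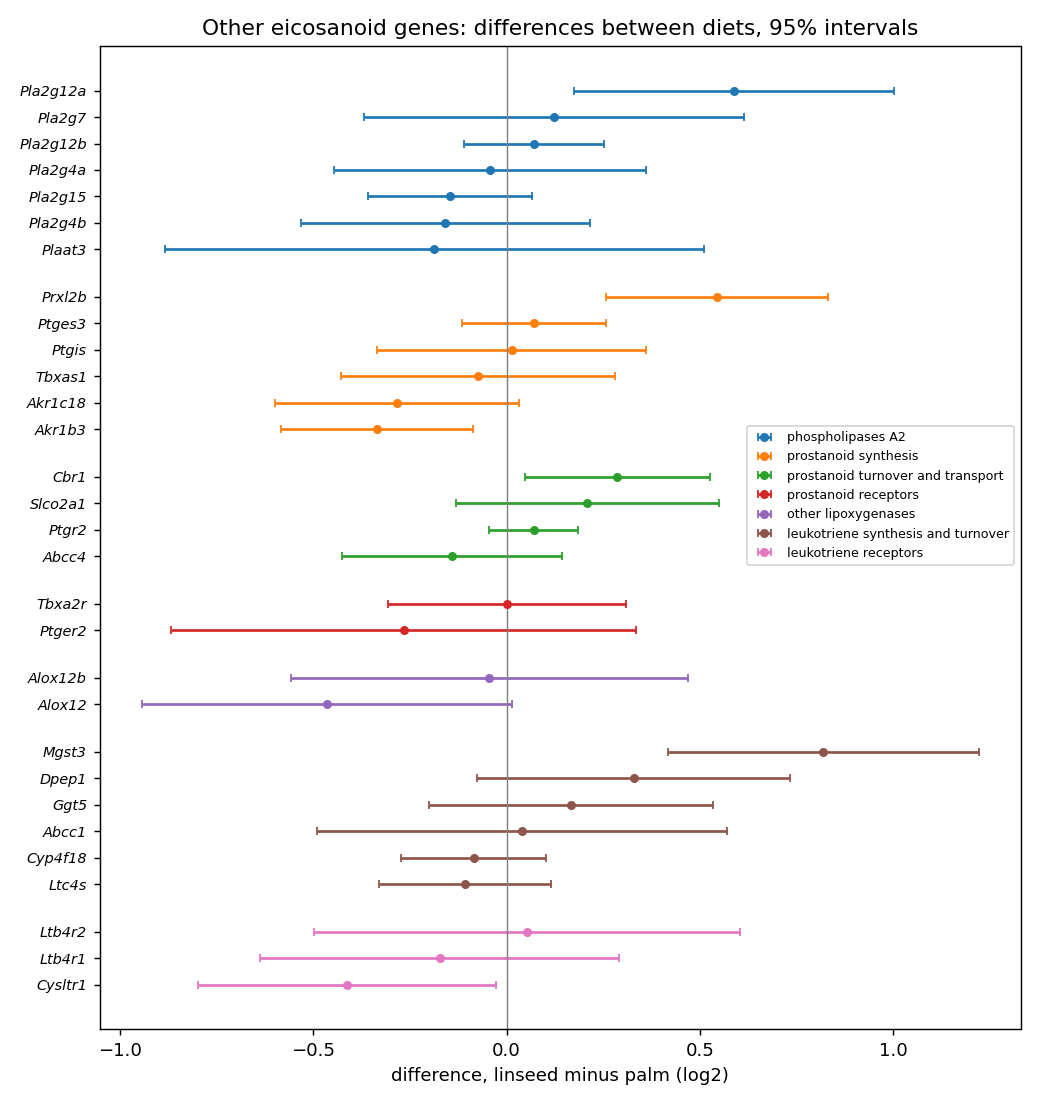
Difference between diets, linseed minus palm (log2), with its 95% interval, of the 30 tested genes of the same pathways outside the 10, coloured by role. No gene was called, and Mgst3 (0.82) lies farthest from 0.

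The genes whose array-to-array pattern was most like that of Ptgds were sought as a description, by Pearson correlation of deviations from the diet means over 18 arrays, which share slides and depth of signal. The highest were Pde7a, a phosphodiesterase (r = 0.83), Wdr11 (0.82), Socs6, a suppressor of cytokine signalling (0.82), an unnamed transcript (0.82) and Notch3, a receptor of vascular mural cells (0.81). Without the array farthest from the diet means, linseed array 5, these values were 0.54, 0.65, 0.52, 0.38 and 0.49, so the likeness rested largely on 1 array. None of these 5 was called between diets, Notch3 being at −0.37 (limma adjusted p = 0.656).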

How the data were processed

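Per the labels' protocols, 1 µg of total liver RNA per mouse was labelled with Cy3 and hybridised to a 1-colour Agilent array. Per the file headers, the authors extracted spot intensity values with Feature Extraction 9.5.3.1, which subtracts background spot by spot to give the processed signal, and probe positions are those of mm9. Feature Extraction 9.5 and limma are the tools in the submitters' processing notes. A deposited table of 18060 probes holds the authors' own log2 values, with medians per array of 7.8476 to 7.8519. Its scaling, centring and filter are not given in the sources used here. It was an alternative source of values.

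The processed signal was taken to log2 and scaled by subtracting the 75th percentile of each array over non-control spots (117 to 204 intensity units). Spots that the software had marked as irregular, by shape or as outliers among repeats (238 to 1703 per array), were left out, and saturated spots (63 to 111) were kept. A probe was kept if well above background on at least 8 arrays with at least 6 values per diet, and each gene was read from its brightest kept probe. The diet comparison used lmFit and eBayes of limma 3.58.1 (R 4.3.3), two-sided and without covariates, after the procedure had been tested on simulated data. Symbols were updated through RefSeq names of GRCm38.p6 (26055 probes by accession, 3195 by symbol, 930 by synonym; 9249 kept the file's name). Slides, which coincide with scan groups, come from the barcodes in the file headers and file names. The arrays of slide 1 have no barcode in the header and were taken to be together by their file names.

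The 10 genes and the lists of pathway genes and markers were chosen with earlier results of these data known. Named pathway genes are the 2 tested genes with the smallest p in each role, and the 5 genes most like each called one. Cfd, Fabp4, Msln, the defining adipocyte genes and the undetected pathway genes were named after their values were seen. Alternatives covered background correction, scaling, filters, marked spots, probe choice, slide and replicate blocks, array weights, trend and robust eBayes, the authors' table and leaving out each array. Leaving out slide 1 and slide as a fixed block without linseed array 5 were chosen after seeing the data.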

Additional observations from a re-analysis of the deposited data

Results flagged for a closer look

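In 3 of 46 groups of arrays, over the genes named and both diets, 1 array lay far from the others by Dixon's gap test at its 95% critical value. Chance gives about 1 in 20 groups. The Cysltr1 value of palm array 3 was −2.787, with the nearest palm array at −3.334. For Ptger2, linseed array 5 was at −5.005 and the nearest linseed array at −3.732. For Cbr1, palm array 8 was at 4.333 and the nearest palm array at 3.811. None of these 3 genes was called, and none of the 9 tested chosen genes had such an array.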

How the results depend on the processing

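Over all genes, 121 were called as reported and 18 to 200 under other settings: 68 with normexp background correction, 42 with the percentile over unmarked spots, 44 with no filter on dim probes, 200 with slide as a random block, 30 without slide 1, 35 with slide as a fixed block without linseed array 5, and 51 to 142 when 1 array was left out. The cause was not tested. No chosen gene was called (0) with quantile normalization, no filter, the filter on all 18 arrays (which removed Ptgds) or the replicate block, and 0 to 1 when 1 array was left out. Among the other pathway genes 1 was called with median scaling, the filter on all 18 arrays, marked spots kept, slide as a random block, trend and robust eBayes (Mgst3 in each) and the authors' table (Cyp4f14), and 0 to 1 when 1 array was left out.

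Ptgds ran from −1.74 to −1.26 when 1 array was left out. Without slide 1 it was −1.27 (adjusted p = 0.0224), and with slide as a fixed block without linseed array 5 it was −1.30 (0.0124). Some differences near 0 changed sign and none of these was called. Ptgr1 was at 0.0042 with quantile normalization, 0.041 with median scaling, 0.047 with array weights and −0.060 to 0.062 when 1 array was left out. Alox5ap was at 0.012 with median scaling, 0.038 with array weights and −0.11 to 0.027 when 1 array was left out. Tbxa2r was at −0.039 with the percentile over unmarked spots, −0.052 with slide as a fixed block, −0.024 as a random block, −0.029 with the replicate block and −0.085 to 0.090 when 1 array was left out. Alox12b was at 0.057, 0.0034 and 0.033 with these blocks, 0.0044 in the authors' table, 0.023 with slide as a fixed block without linseed array 5 and −0.16 to 0.071 when 1 array was left out. Dpep1 was at −0.042 with normexp. Differences of Ptgs1, Ptges, Ptges2, Hpgd, Lta4h and Pla2g6 kept their sign in all 35 settings and were called in none.

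Whether replicate numbers pair mice is not given by the labels. The residual correlation of the 8 same-numbered pairs was −0.23 to 0.49, 5 were over 0.1, and 2 linseed arrays correlated best with their own number. Of the pairs 6 shared a slide, among them the 5 over 0.1, so pairing and slide cannot be told apart here. With the replicate block, over 16 arrays, 18 genes were called and Ptgds was at −1.57 (adjusted p = 0.141). Low signal over background limits what can be said of Alox5, the second Ptges probe, Ptgs2, Hpgds and the receptors of prostaglandin D.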

Other observations

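Cyp4f14, a liver cytochrome P450 that inactivates leukotriene B, was well above background on all 8 linseed and all 10 palm arrays. It was left out of the test because its spot was unmarked on only 4 linseed and 4 palm arrays. With marked spots kept its difference, linseed minus palm, was −0.32 ± 0.091 (limma adjusted p = 0.135), and in the authors' deposited table −0.37 ± 0.073 (limma adjusted p = 0.0194). It was singled out after its values were seen.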
